A study of Arabidopsis thaliana with 6 samples.

Results

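Enzymes that break down methionine, lysine and leucine were followed through 6 genes in Arabidopsis thaliana, among 13286 genes with a single-gene probe set. They are MGL, AT4G33150 (LKR/SDH), IVD, MCCA, MCCB and ETFQO, each measured by 1 probe set of the Affymetrix ATH1 array, on which several short probes are read together as 1 level for a transcript. The genes were picked by name because earlier results on these same arrays had shown them far above air with ethylene, so their ethylene values are given as a description and carry no test.

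The study used 3 groups with 2 arrays each, which its design text describes as biological replicates. The first was the wild type Col-0 kept in hydrocarbon-free air, and the second was Col-0 given the gaseous hormone ethylene at 10 ppm. The third was the line amiR-ETP1/2, which carries an artificial microRNA against the F-box protein genes ETP1 and ETP2, in plants for which the labels name no gas. All plants are given as 3 weeks old with no organ named, the sources used here name neither the promoter of the artificial microRNA nor the number of independent lines, and the ethylene exposure is 4 h in the characteristics but 24 h in the titles. The study's title links ETP1 and ETP2 to the degradation of EIN2, a membrane protein needed for ethylene signalling.

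Plant cells that run short of carbohydrate can use amino acids as a fuel, and the enzymes for this lie largely in the mitochondrion. Leucine, isoleucine and valine lose their amino group, the resulting keto acids are oxidised to acyl-CoA esters, and dehydrogenases such as IVD pass electrons from these esters through the electron transfer flavoprotein ETF and its partner ETFQO to ubiquinone of the respiratory chain. Lysine is broken down through saccharopine by the bifunctional enzyme LKR/SDH, and methionine is cleaved by MGL in the cytosol into methanethiol, ammonium and 2-oxobutyrate.

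The arrays differed mainly by ethylene. Over the probe sets, which are no independent replicates of each other, Pearson's r was 0.791 to 0.810 between air and ethylene arrays, and 0.985 to 0.993 between the arrays of a group. The probe set of ETP2 had log2 levels of 4.06 and 4.14 in air and of 4.23 and 4.47 in the arrays labelled amiR-ETP1/2, a difference of 0.25 with a standard error (SE) of 0.14 that was not called (limma adjusted p = 0.448). Its air levels were below the array medians of 4.44 and 4.45, where a fall could hardly show, so this probe set does not check the knockdown and any direction below for amiR-ETP1/2 rests on the label. Listed genes are called measured where the annotation matched a single-gene probe set to them, and the others may still be on the array. Of 6 leaf markers 3 were measured. Their log2 levels were 11.42 to 13.31 in air, 7.81 to 9.16 with ethylene and 11.20 to 13.17 in the arrays labelled amiR-ETP1/2. The log2 of their summed signal was 14.01 to 14.15, 10.27 to 10.32 and 13.90 to 14.04 in these groups. For root hairs 2 of 4 markers were measured, with a log2 summed signal of 5.08 to 5.88 in air, 5.05 to 5.43 with ethylene and 4.87 to 5.50 in the arrays labelled amiR-ETP1/2, and 0 of 2 seed markers were measured. No marker could read as 0 on this scale. The actin control, read at the 3' end and in the middle of its transcript, was brighter at the 3' end by 0.32 and 0.83 log2 units in air, while the ethylene arrays gave 2.17 and 2.02 and both arrays labelled amiR-ETP1/2 gave 0.89. The other readings went differently: the log2 difference of actin between 3' and 5' ends was 4.04 and 4.68 in air, 4.78 and 5.20 in the arrays labelled amiR-ETP1/2 and less with ethylene (3.40 and 3.51), and for GAPDH the ethylene values (1.02 and 1.76) overlapped those in air (0.77 and 1.76). Leaf marker levels thus fell with ethylene, where the members rose, and the actin readings shifted in opposite directions. The part of these shifts in the results below was not tested.

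MGL (AT1G64660, chromosome 1), the methionine gamma-lyase, stood at log2 levels of 4.00 and 4.03 in air. It reached 10.45 and 10.68 with ethylene, and 4.44 and 4.76 where the label was amiR-ETP1/2. Its air levels were below the array medians of 4.44 and 4.45, its ethylene levels far above both other groups, and no groups overlapped. Where a level is this low its signal over background is not known, so the 93.7-fold ratio of ethylene to air is a ratio of deposited values. In bulk tissue such as this, fewer cells that use a gene and less of its RNA per cell cannot be told apart.

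AT4G33150 (chromosome 4) encodes LKR/SDH, which joins the lysine-ketoglutarate reductase and saccharopine dehydrogenase activities in 1 protein. Its log2 levels were 4.74 and 4.37 in air against 10.92 and 10.96 with ethylene, while they were 4.68 and 5.45 in the arrays labelled amiR-ETP1/2. The arrays with ethylene were again the high ones, while the air and amiR-ETP1/2 arrays overlapped. The arrays labelled amiR-ETP1/2 lay 0.77 log2 units apart, the widest replicate gap of any member in any group.

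IVD (AT3G45300, chromosome 3), isovaleryl-CoA dehydrogenase, takes the first electrons from the leucine skeleton after its decarboxylation. Its log2 levels were 5.78 and 5.37 in air against 11.10 and 11.05 with ethylene, while they were 5.36 and 5.93 in the arrays labelled amiR-ETP1/2. The last group spanned the range of the air arrays on both sides. ETFQO (AT2G43400, chromosome 2), the oxidoreductase that delivers electrons from ETF to ubiquinone, had log2 levels of 5.30 and 4.60 in air against 9.38 and 9.48 with ethylene, while they were 4.60 and 5.10 in the arrays labelled amiR-ETP1/2. Its air arrays were 0.70 log2 units apart, and both amiR-ETP1/2 values fell inside that span.

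MCCA and MCCB encode the subunits of 3-methylcrotonyl-CoA carboxylase, the biotin enzyme that follows IVD in leucine breakdown. MCCA (AT1G03090, chromosome 1), the biotin-carrying subunit, had log2 levels of 6.86 and 6.57 in air against 11.95 and 12.06 with ethylene, while they were 6.28 and 6.54 in the arrays labelled amiR-ETP1/2. MCCB (AT4G34030, chromosome 4), the carboxyltransferase subunit, had log2 levels of 7.16 and 6.69 in air against 10.68 and 10.79 with ethylene, while they were 7.46 and 7.94 in the arrays labelled amiR-ETP1/2. Both subunits were highest with ethylene. For MCCA both amiR-ETP1/2 values lay below both air values, though only just (6.54 against 6.57), and for MCCB above both. Neither gene was called in amiR-ETP1/2 against air (limma adjusted p = 0.424 for MCCA and 0.166 for MCCB). Of all probe sets 18.9% had both amiR-ETP1/2 arrays above both air arrays, and the share below was not counted.

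**Figure D1:**
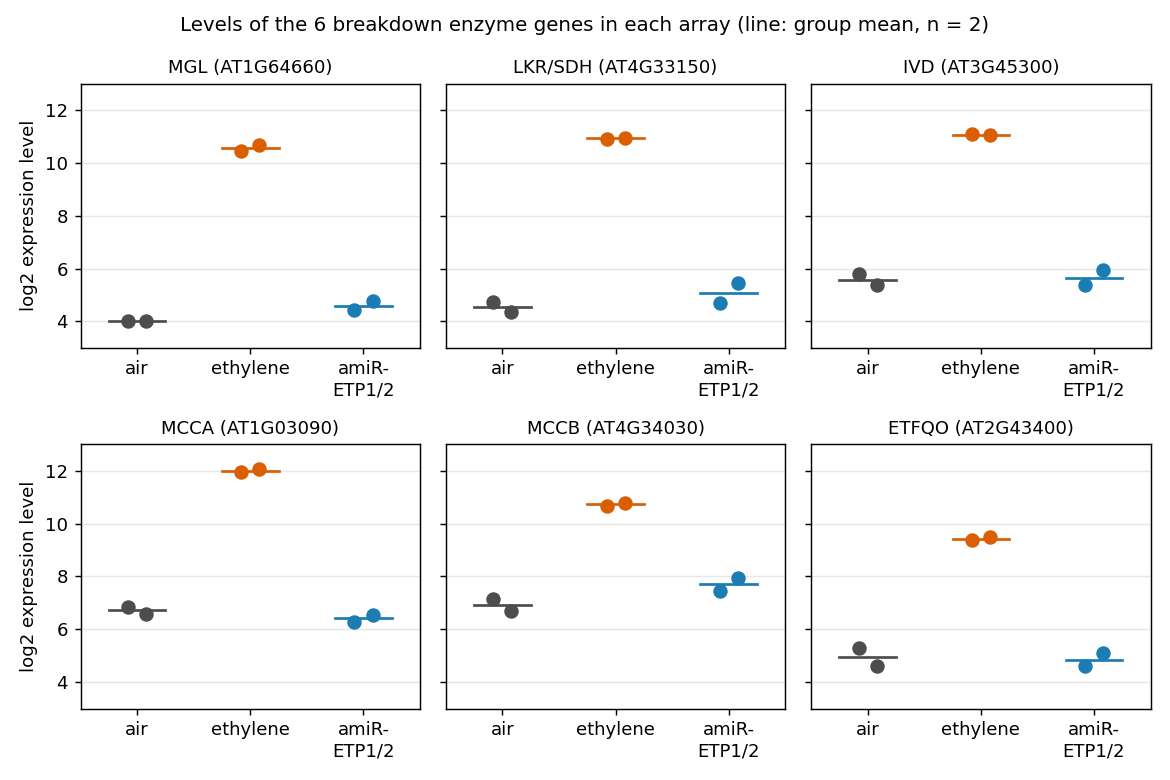
The log2 expression level (vertical axis) of each of the 6 genes is plotted for the 2 arrays of each group as points, with the group mean as a line. For each gene both ethylene arrays lie above 9 on this scale, and the air and amiR-ETP1/2 arrays lie below 8.

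With ethylene, both arrays were above both air arrays for 6 of 6 members, beside 33.5% of all probe sets. This count follows from how the genes were picked, and no calls are given for the members here. Over all probe sets, 18.9% were called higher with ethylene and 36.0% in either direction. The log2 differences from air ran in the order MGL (6.55, SE 0.16), LKR/SDH (6.38, SE 0.25), IVD (5.50, SE 0.22), MCCA (5.29, SE 0.16), ETFQO (4.48, SE 0.26) and MCCB (3.81, SE 0.21). MGL and LKR/SDH were 0.17 apart, and IVD and MCCA 0.20 apart. The other steps in the order were 0.67 to 0.89, and none was tested. The places of MGL and LKR/SDH in the order depend on low levels in air. MGL was below the array median in both air arrays, and LKR/SDH in air array 2 (4.37 against 4.45). As ratios, ETFQO was 22.3-fold and MCCB 14.0-fold higher with ethylene than in air. The members' median difference was 5.39, beside a median of -0.00 over all 22746 probe sets tested. Replicates lay 0.03 to 0.23 log2 units apart with ethylene, 0.03 to 0.70 in air and 0.26 to 0.77 in the arrays labelled amiR-ETP1/2, over the members. MGL had its smallest gap in air (0.03) and a larger one with ethylene (0.23).

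The comparison of amiR-ETP1/2 with air asked whether the genes differed in the knockdown line from the wild type in air. It was not used to pick the genes, but it shares the air arrays with the comparison that was. None of the 6 members passed the limma test at a Benjamini-Hochberg adjusted p under 0.05, beside 0.347% of all probe sets called higher and 0.620% called in either direction. At an unadjusted p under 0.05 there were 2 of 6 members, MGL and MCCB, beside 15.1% of all probe sets. MCCB had the largest log2 difference of the members, 0.77 (SE 0.21, 95% interval 0.27 to 1.28, adjusted p = 0.166). MGL differed by 0.58 (SE 0.16, 95% interval 0.21 to 0.95, adjusted p = 0.158). These 2 genes had both arrays above both air arrays, beside 18.9% of all probe sets.

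LKR/SDH had a log2 difference of 0.51 from air in amiR-ETP1/2 (95% interval -0.08 to 1.10, adjusted p = 0.402), which was 0.13 without amiR-ETP1/2 array 2 and 0.89 without amiR-ETP1/2 array 1. MCCA had one of -0.30 (95% interval -0.67 to 0.07, adjusted p = 0.424). For IVD it was 0.07 (95% interval -0.44 to 0.59, adjusted p = 0.920) and turned to -0.14 without air array 2 and to -0.21 without amiR-ETP1/2 array 2. For ETFQO it was -0.10 (95% interval -0.70 to 0.50, adjusted p = 0.900) and turned to 0.25 without air array 1 and to 0.15 without amiR-ETP1/2 array 1. Of the members 4 had a positive difference and 2 a negative one, with a median of 0.29 beside -0.03 over all probe sets. The upper end of the interval was at most 1.28 log2 units, reached by MCCB. The smallest difference with ethylene was 3.81, a size that follows from how the genes were picked. The count behind the 0.620% rested on single arrays, since 141 probe sets were called with all arrays, 28 when air array 1 and 37 when air array 2 was left out. Leaving out either array with ethylene gave 9, and leaving out amiR-ETP1/2 array 1 or 2 gave 229 or 252.

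The second array labelled amiR-ETP1/2 was the higher one for 6 of 6 members, beside 56.5% of all probe sets. Averaged over the members, it lay 0.50 log2 units above the air mean and the first array 0.01 units above it. In air the first array was the higher one for all members but MGL. Against ethylene, the arrays labelled amiR-ETP1/2 were lower by 8.21-fold for MCCB and by 62.7-fold for MGL, the extremes of the members. Both ethylene arrays were above both of these arrays for 6 of 6 members, beside 39.1% of all probe sets, and this too follows from how the genes were picked.

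**Figure D2:**
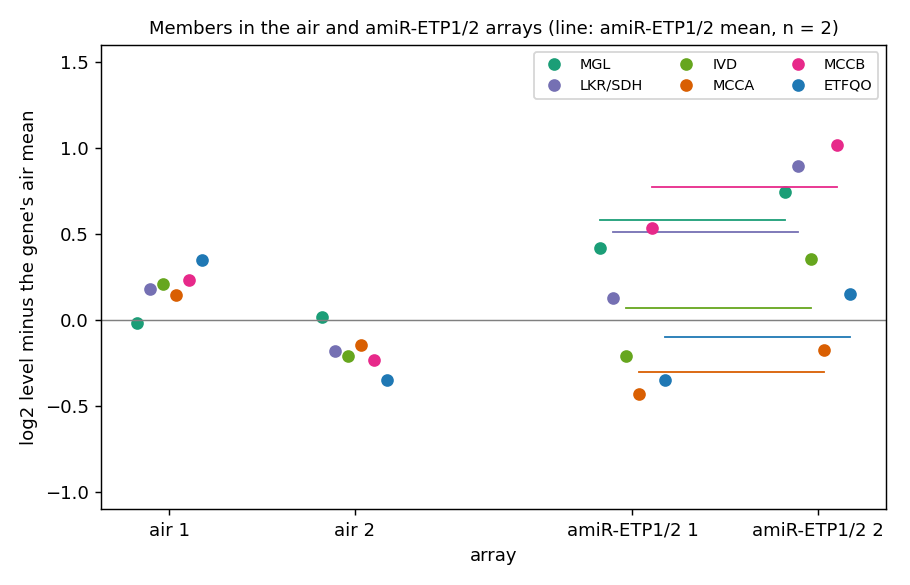
The log2 level minus the gene's own mean in air (vertical axis) is plotted for the 4 air and amiR-ETP1/2 arrays, with a line at the amiR-ETP1/2 mean of each gene. MCCB lies 0.54 and 1.01 above its air mean in the arrays labelled amiR-ETP1/2 and MCCA 0.43 and 0.17 below its own, and every gene is higher in the second of these arrays than in the first.

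The subunits of 3-methylcrotonyl-CoA carboxylase did not change by the same amount. Taken within each array, MCCB relative to MCCA departed from its air mean by 0.09 and -0.09 log2 units in air, by -1.48 in each ethylene array and by 0.96 and 1.19 in the arrays labelled amiR-ETP1/2. With ethylene the rise of MCCB was thus 2.79-fold smaller than that of MCCA, and in amiR-ETP1/2 MCCB had gained 2.11-fold on MCCA. The relation moved in opposite directions in the 2 groups, by far more than the replicate arrays differed. It was picked out after its values had been seen, so it was given no test. The relation cancels any shift that scales a whole array, and it was -1.51 with ethylene and 1.09 in amiR-ETP1/2 after quantile normalization. Leaving out 1 array at a time gave -1.57 to -1.39 and 0.96 to 1.19.

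Other genes of amino acid breakdown were taken from lists that had 54 entries besides the members. A single-gene probe set was found for 19 of them, and the others were not analysed here. Of these 19, 12 rose and 3 fell with ethylene in the limma fit, beside 18.9% and 17.1% of all probe sets, and 4 were not called. Their median log2 difference was 1.0. Without ethylene array 2 there were 9 calls in place of 15, all of them higher, and without ethylene array 1 or air array 1 no lower call was made. The lists were written with results on these arrays known, so the counts describe the pathway and are not independent support.

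The genes that hand on electrons from amino acid oxidation all rose. ETFBETA, the beta subunit of the flavoprotein that receives electrons from IVD, had log2 levels of 6.0 and 6.29 in air, against 8.88 and 8.96 with ethylene, 6.86-fold higher (limma adjusted p = 1.07e-05). ETFALPHA, its partner subunit, had levels of 5.64 and 5.36 in air, against 6.81 and 6.64 with ethylene, 2.33-fold higher (adjusted p = 0.00113). D2HGDH, which oxidises D-2-hydroxyglutarate and passes its electrons to ETF, rose 5.09-fold (adjusted p = 6.85e-06). The ethylene difference was thus larger for ETFBETA (2.78, SE 0.15) than for ETFALPHA (1.22, SE 0.18), and for ETFQO downstream of them it was 4.48.

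In lysine breakdown, 2 of 3 measured genes rose beside LKR/SDH. AT1G07040, which encodes the hydroxyglutarate synthase that forms D-2-hydroxyglutarate, had log2 levels of 7.01 and 6.41 in air, against 11.37 and 11.52 with ethylene, 26.6-fold higher (limma adjusted p = 1.72e-05). ALDH7B4, an aldehyde dehydrogenase of the family that oxidises the aminoadipate semialdehyde made by LKR/SDH, had levels of 7.81 and 7.24 in air, against 11.51 and 11.72 with ethylene, 17.1-fold higher (adjusted p = 6.88e-06). The measured genes on the route from LKR/SDH to D2HGDH were thus all higher with ethylene. AT5G52810 (SARD4), which acts on the branch from lysine to pipecolate, differed the other way and fell by 0.66 on the log2 scale (adjusted p = 0.0201), a call lost without either ethylene array or without air array 1.

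The branched-chain list was divided. ALDH6B2, the methylmalonate semialdehyde dehydrogenase of valine breakdown, rose from log2 levels of 8.41 and 7.87 to 10.91 and 11.12, 7.36-fold (limma adjusted p = 2.77e-05). AT4G20930, of the 3-hydroxyisobutyrate dehydrogenase type that precedes it, rose 5.27-fold from 5.50 and 5.67 to 8.08 and 7.88 (adjusted p = 1.75e-05). AT2G26800, the hydroxymethylglutaryl-CoA lyase that ends the leucine route begun by IVD and MCC, had levels of 7.63 and 7.17 in air, against 7.88 and 8.12 with ethylene and was not called (difference 0.60, adjusted p = 0.144). From the 4 arrays compared alone it was called with the same difference (adjusted p = 0.0418).

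The enoyl-CoA hydratase type gene AT4G16800 fell by 0.59 (adjusted p = 0.0265) and the CoA hydrolase type gene AT4G31810 by 0.43 on the log2 scale (limma adjusted p = 0.0377). Both calls were lost when any 1 air or ethylene array was left out, and that of AT4G31810 also with the replicate block (adjusted p = 0.0663), without the lowest 40% of probe sets (adjusted p = 0.0559) and with the trend and robust options (adjusted p = 0.0621). The ethylene levels of AT4G31810, 3.89 and 4.11, were below the array medians of 4.42 and 4.46, where signal over background is not known. AT5G09300, an E1 alpha subunit of the branched-chain keto acid dehydrogenase, had levels of 4.69 and 4.91 in air, against 4.46 and 4.65 with ethylene (difference -0.25, adjusted p = 0.255). Within this list the called rises were thus those of ALDH6B2 and AT4G20930, while AT4G16800 and AT4G31810 (listed as CHY4) were called lower. No route as a whole is read from these calls. The ethylene differences of the 6 genes of the list ran from -0.59 to 2.88.

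Of the remaining routes, DELTA-OAT, the ornithine aminotransferase of arginine breakdown, rose 9.78-fold from log2 levels of 5.34 and 5.13 to 8.50 and 8.54 (limma adjusted p = 8.82e-06). The proline dehydrogenase gene AT5G38710 (PRODH2) rose 2.62-fold (adjusted p = 0.000436), and the urease gene URE had a difference of -0.00 (adjusted p = 0.989). The levels of URE were 4.29 and 4.03 in air and 4.09 and 4.22 with ethylene. All were below the medians of their arrays, where signal over background is not known. LCD, a cysteine desulfhydrase, rose by 1.0 log2 unit (adjusted p = 0.0104), the tyrosine aminotransferase gene AT5G36160 rose 1.73-fold (adjusted p = 0.0124) and the asparaginase gene ASPGB1 1.78-fold (adjusted p = 0.0209). The calls of LCD, AT5G36160 and ASPGB1 were lost without ethylene array 2. Those of LCD and AT5G36160 were lost also without ethylene array 1, that of AT5G36160 without air array 2, and that of ASPGB1 without either air array. ASPGA1, the other asparaginase gene, had a difference of 0.46 (adjusted p = 0.0627). It was called higher after quantile normalization (adjusted p = 0.0413), after median centring (adjusted p = 0.0442) and from the 4 arrays compared alone (adjusted p = 0.0474). The list of glutamate and GABA breakdown had 0 of 7 genes matched to a single-gene probe set.

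Synthesis of the same amino acids could be followed in 3 of 25 listed genes, all of the branched-chain route. AT3G23940, the dihydroxyacid dehydratase, fell from log2 levels of 7.47 and 7.39 in air to 4.28 and 4.89 with ethylene, 7.18-fold lower (limma adjusted p = 0.000171). The lower of these ethylene levels was below its array's median of 4.42, so this fold too is a ratio of deposited values. AT3G58610, the ketol-acid reductoisomerase of the step before, fell by 1.06 on the log2 scale from 10.69 and 10.56 to 9.45 and 9.68 (adjusted p = 0.000923). ATBCAT-5, an aminotransferase of the last step, had a difference of -0.24 (adjusted p = 0.202). No measured synthesis gene was called higher. For lysine synthesis 0 of 5 genes, and for methionine and S-adenosylmethionine synthesis 0 of 8, were matched to a single-gene probe set.

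**Figure D3:**
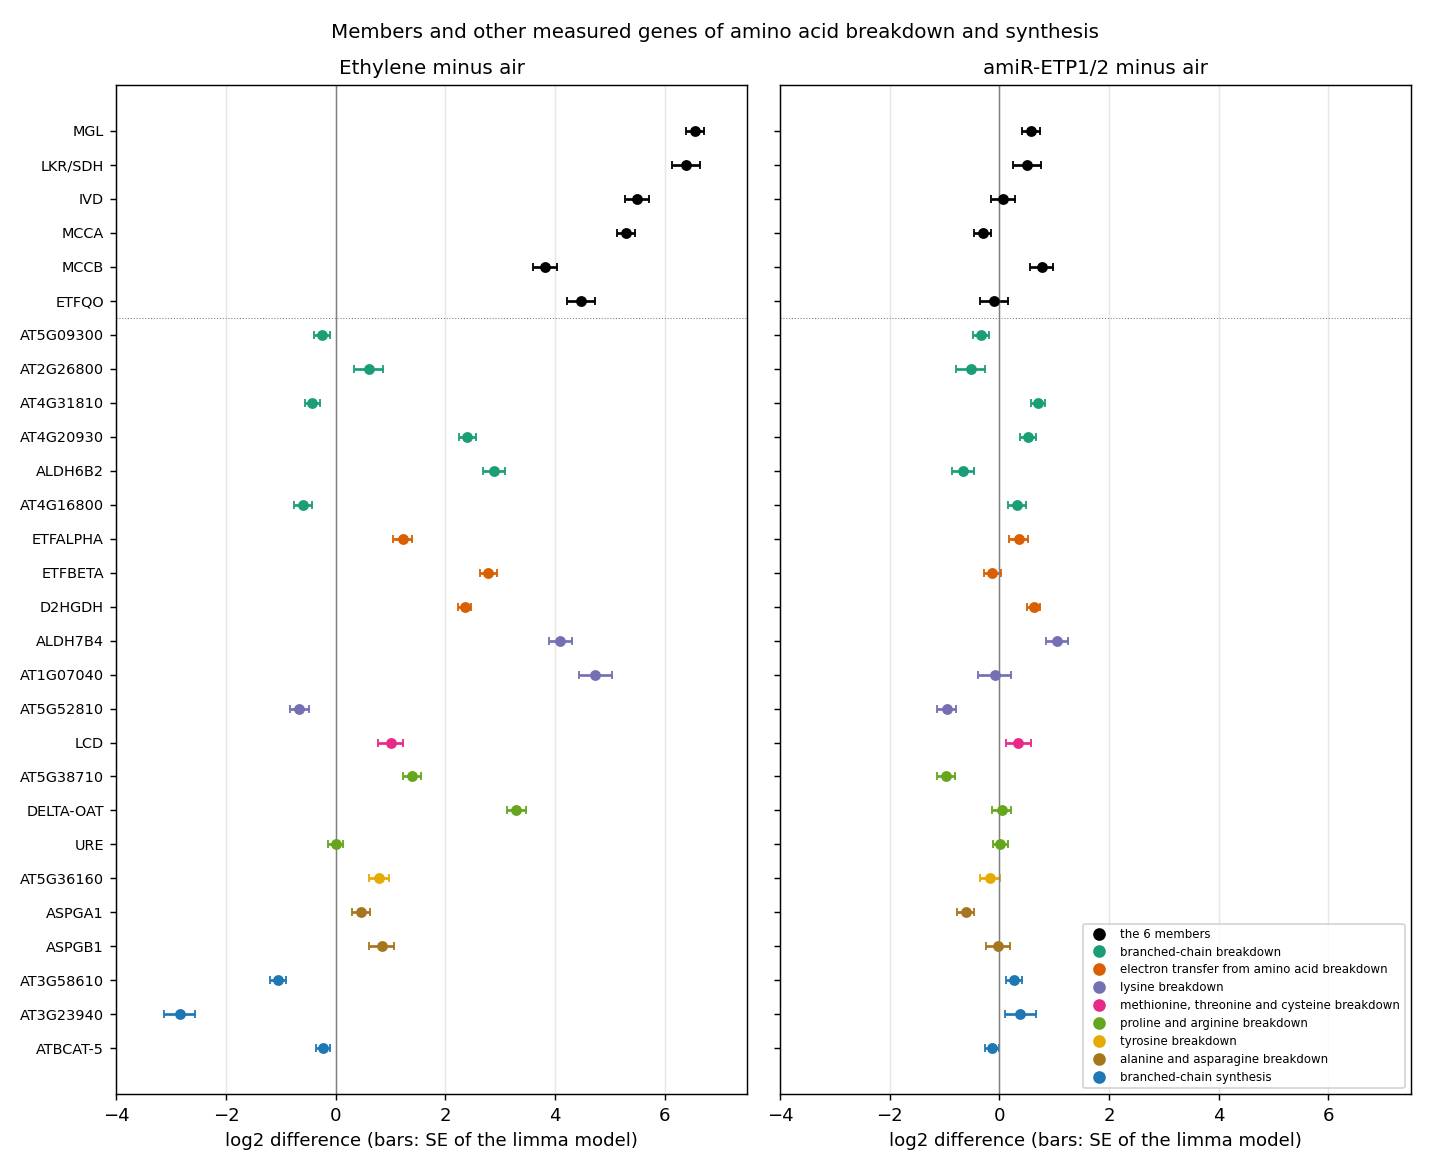
Log2 differences from air (horizontal axis, bars showing the SE of the limma model) are plotted for ethylene on the left and amiR-ETP1/2 on the right, for the 6 members above the dotted line and for 19 other breakdown and 3 synthesis genes below it. With ethylene the members run from 3.81 to 6.55, the other breakdown genes from -0.66 to 4.73 and the synthesis genes from -2.84 to -0.24, while with amiR-ETP1/2 the values run from -0.96 to 1.05.

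In the arrays labelled amiR-ETP1/2, none of the 19 other breakdown genes was called by limma, beside 0.620% of all probe sets, and 9 had an unadjusted p under 0.05, beside 15.1% of all probe sets. Their median log2 difference from air was -0.02, beside -0.03 over all probe sets. For the 3 synthesis genes both counts were 0. ALDH7B4 had log2 levels of 8.46 and 8.69, above 7.81 and 7.24 in air, a difference of 1.05 (SE 0.21, adjusted p = 0.0853). AT5G38710 had levels of 4.36 and 4.51, below 5.59 and 5.21 in air, a difference of -0.96 (SE 0.17, adjusted p = 0.0628), and AT5G52810 differed by -0.96 (SE 0.17, adjusted p = 0.0701). D2HGDH differed by 0.62 (adjusted p = 0.0790) and AT4G31810 by 0.71 (adjusted p = 0.0715). The values of ALDH7B4, AT5G38710 and AT5G52810 passed the threshold after quantile normalization and in the fit that dropped the lowest 40% of probe sets. ALDH7B4 passed also with the trend and robust options.

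The genes whose profile was nearest to the members were found by the root mean square difference over the 6 arrays from the members' mean profile, each gene taken relative to its own air mean, among 13430 single-gene probe sets. The nearest was UPB1 (AT2G47270), a bHLH transcription factor gene, at 0.20 log2 units. It had log2 levels of 3.56 and 3.67 in air against 9.11 and 9.01 with ethylene, while they were 3.61 and 3.84 in the arrays labelled amiR-ETP1/2. Next came AT1G05340 (0.25), DPL1 (0.26), which encodes a lyase for phosphorylated sphingoid bases, AT1G19020 (0.27) and AT5G57910 (0.27). Both air levels of UPB1, AT1G05340 and AT5G57910 were below the array medians of 4.44 and 4.45, where signal over background is not known. Among the members IVD was nearest to the mean profile, at 0.15, and MCCB farthest, at 0.93, where the mean includes each member itself. Of the other single-gene probe sets, 60 lay closer to the mean profile than MCCB. For MGL this count was 36, for LKR/SDH 28, for ETFQO 21, for MCCA 9 and for IVD 0. The likeness is over arrays of 3 groups and is set mainly by the size of the ethylene difference, so genes with a rise of similar size come out near.

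**Figure D4:**
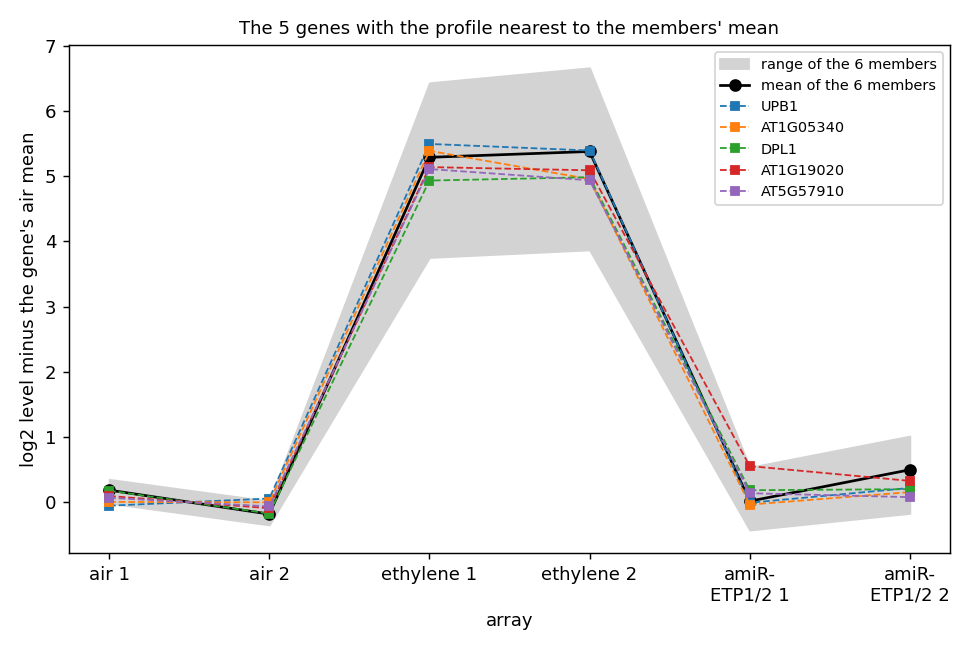
The log2 level minus the gene's own air mean (vertical axis) is plotted across the 6 arrays for the mean of the 6 members (black), their range (grey) and the 5 nearest other genes (dashed). The members' mean lies at 5.29 and 5.38 in the ethylene arrays and at 0.01 and 0.50 in the arrays labelled amiR-ETP1/2.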

How the data were processed

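The deposited values are log2 expression levels with 1 number for each probe set on each array. The log2 scale was read from their range, since the labels do not state it, and the folds depend on that reading. Per the submitters' processing notes limma was used. The sources used here do not give the background correction, probe summary, normalization or genome build.

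Of 22753 probe sets, 7 controls were left out and 22746 tested with no filter. All 6 arrays entered 1 linear model of group means in limma 3.58.1 (R 4.3.3, 3 residual and 4.15 prior degrees of freedom), and calls were made at an adjusted p under 0.05 (two-sided, Benjamini-Hochberg, over the probe sets of a contrast). The script was tested on simulated data. For arrays, their number limits the precision.

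Genes were named through the platform annotation and TAIR10.1 locus tags. Only 14016 probe sets had a gene in that annotation, so a listed gene without a match may lie on an unnamed probe set. With several probe sets, the one of highest mean was used. The members and lists were chosen with earlier results of these data known. Named were the members, the measured genes of the branched-chain, electron transfer, lysine and methionine lists, up to 3 with the largest ethylene difference of each other list, and the 5 nearest profiles. Other genes were chosen after their values were seen. Alternatives were quantile normalization, median centring, leaving out the 40% of probe sets of lowest mean, a replicate block, the 4 compared arrays alone, trend and robust options, and leaving out each array.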

Additional observations from a re-analysis of the deposited data

How the results depend on the processing

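The differences of the members with ethylene kept their sign in all 12 alternatives, which follows from their size and from how the genes were picked. No member was called in amiR-ETP1/2 in the alternatives that kept both arrays of each compared group. For MGL the adjusted p in amiR-ETP1/2 ran from 0.0918 to 0.330, and for MCCB from 0.0868 to 0.419. Leaving out 1 array at a time, the difference of amiR-ETP1/2 from air ran from -0.21 to 0.35 for IVD, from -0.45 to 0.25 for ETFQO and from 0.13 to 0.89 for LKR/SDH, and the difference of LKR/SDH from ethylene ran from -6.26 to -5.49. The count of probe sets called in amiR-ETP1/2, 141, was 259 after quantile normalization, 213 after median centring, 232 without the lowest 40% of probe sets, 42 with the replicate block, 9 from the 4 compared arrays, 233 with trend and robust options and 9 to 252 with 1 array left out. Higher calls were 79 of the 141, 136 of 259, 129 of 213, 125 of 232, 25 of 42, 8 of 9 and 131 of 233 in these settings. The other breakdown genes called in amiR-ETP1/2 were 0, but 3 after quantile normalization, 3 without the lowest 40% and 1 with trend and robust options. With ethylene their count, 15, was 9 to 17 with 1 array left out. The cause of these shifts was not tested.

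Replicate numbers link no arrays beyond the shared number. The correlation of the replicate deviations was -0.137 between air and ethylene, -0.169 between air and amiR-ETP1/2 and 0.0686 between ethylene and amiR-ETP1/2. With the replicate block MGL in amiR-ETP1/2 had an adjusted p of 0.194 and MCCB of 0.249.

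Signs turned for genes near 0. URE with ethylene was 0.014 after quantile normalization and 0.0013 after median centring, and -0.13 to 0.12 with 1 array left out. In amiR-ETP1/2, ASPGB1 was 0.012 after median centring and -0.25 to 0.22 with 1 array left out, where AT1G07040 ran from -0.50 to 0.33, AT5G36160 from -0.39 to 0.065, DELTA-OAT from -0.18 to 0.27, ETFBETA from -0.28 to 0.015 and URE from -0.11 to 0.14. The alternatives for MCCB relative to MCCA were chosen after seeing the data. With 1 array left out, the lone array is assumed to vary like the other groups.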
